A study of Mus musculus with 9 samples.

Results

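The genes examined here encode the enzymes that build, desaturate and elongate fatty acids, together with a transcription factor that governs them. They were taken by symbol from the raw count table of liver macrophages, and the list was Fasn, Acaca, Acly, Scd1, Scd2, Srebf1, Elovl1, Elovl5, Elovl6 and Fads1. All 10 symbols were found, among 23413 genes in the table, and all 10 passed the filter on low counts that left 11393 genes for testing. By their titles, the RNA-seq libraries came from single mice in 3 groups. The study's figure legend gives more mice per group than there are libraries here, and this difference is not explained. All were male C57BL/6 mice, 5 weeks old when the diets began, and were kept on the diets for 8 weeks. The NC group (n = 2) ate normal chow with 10% of its calories as fat and carried no treatment label. Both other groups ate a high-fat diet (HFD) with 60% of calories as fat, and received either the polyethylene glycol vehicle (n = 3) or diphenyleneiodonium (DPI; n = 4), an agonist of the receptor GPR3 that is also known as an inhibitor of flavoenzymes. DPI was injected at 2 mg/kg every 5 days from week 3. A protocol label describes instead isolated cells exposed to 500 nM DPI for 24 h, and the group labels and the design text were followed here. Because the NC mice carry no vehicle label, diet and vehicle injection cannot be told apart in either comparison with NC.

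In the cytosol, ATP-citrate lyase turns citrate into acetyl-CoA, acetyl-CoA carboxylase turns this into malonyl-CoA, and fatty acid synthase condenses both into palmitate. Elongases and desaturases then lengthen palmitate and insert double bonds, also in fatty acids from the diet. SREBP1, encoded by Srebf1, is known to activate transcription of many of these enzymes in liver, and in macrophages the same enzymes supply membrane lipids and unsaturated fatty acids.

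The cells had been sorted as F4/80+ CD11b+ Gr1low liver macrophages, a gate meant to leave out Gr1-high neutrophils, and are labelled Kupffer cells. General macrophage markers were abundant, with 7 of 7 above 3 counts in every library. Among them C1qa was at 82.2 to 124 CPM in NC and in DPI replicates 1 and 2, and at 19.8 to 41.5 CPM in the other libraries. C1qc split the same way, and the other macrophage markers did not. Defining Kupffer cell markers were not. Clec4f had 0 counts in 1 NC library and in 2 vehicle libraries, Vsig4 was at 0 in all vehicle libraries, and Marco was at 0 in all NC and vehicle libraries. Of 7 Kupffer cell markers in the table, 2 to 7 had a count in a library, and they summed to 142 to 192 CPM in NC, 57.0 to 85.7 CPM in vehicle and 71.5 to 197 CPM in DPI. Most of each sum was Emr1, which encodes F4/80, a marker of the sort itself, at 115 to 139 CPM in NC, 55.0 to 67.3 CPM in vehicle and 56.4 to 142 CPM in DPI. Markers of other cells were also present, and their sums are given beside several genes below, while 5 of 5 adipocyte markers were at 0 in every library. The libraries held 3534325 to 15585775 counts, of which the ribosomal RNA precursor Rn45s took 27% to 44.5%. A count of 3, taken as the floor of detection, was worth 0.184 to 1.02 CPM, depending on the library. CPM is the count scaled to a common library size, here after TMM, a method that corrects library sizes for differences in composition. Groups were compared with the quasi-likelihood test of edgeR, whose p-values were adjusted over all genes tested by the Benjamini-Hochberg method. The study's own threshold, an unadjusted p under 0.05 with at least a 2-fold difference, is given beside it. In DPI against vehicle the edgeR adjusted p was 0.999 for Fasn, Scd2, Srebf1, Elovl5 and Elovl6. The intervals are not adjusted for the number of genes tested. In that comparison 4.13% of all genes had an unadjusted p under 0.05 in edgeR. In bulk RNA a lower level can mean fewer cells of a type or less RNA in each cell, and these cannot be told apart.

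To show the DNA that lies before these genes, RefSeq windows of 250 bases before an annotated transcription start were read on build GRCm38.p6, in the direction of the gene. Such windows were found for 7 of the 10 members, 10 windows in all, since Srebf1 had 3 starts and Elovl1 had 2. Scd1, Scd2 and Fads1 are named only. Both strands were searched for CCAAT (the NF-Y box), for CACGTG (an E-box) and for TCACNCCAC (a sterol regulatory element core). The windows of Fasn and of the innermost Srebf1 start are printed because these genes encode the synthase and a regulator of the pathway, and that of Elovl5 because it was the most abundant member. Capitals mark CCAAT or its reverse complement and, in Elovl5, also CACGTG.
Fasn, chr11:120824548-120824797, minus strand: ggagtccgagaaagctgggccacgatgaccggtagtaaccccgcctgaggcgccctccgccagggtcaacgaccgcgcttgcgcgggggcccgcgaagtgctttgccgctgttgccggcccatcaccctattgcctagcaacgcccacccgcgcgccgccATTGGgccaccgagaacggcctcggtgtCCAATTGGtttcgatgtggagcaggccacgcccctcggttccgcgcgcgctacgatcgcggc
Srebf1, chr11:60210472-60210721, minus strand: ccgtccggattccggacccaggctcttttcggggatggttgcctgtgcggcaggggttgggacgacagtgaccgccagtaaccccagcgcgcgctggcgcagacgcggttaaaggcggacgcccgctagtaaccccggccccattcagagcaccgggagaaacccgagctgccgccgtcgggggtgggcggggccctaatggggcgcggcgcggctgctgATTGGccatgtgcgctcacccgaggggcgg
Elovl5, chr9:77917115-77917364, plus strand: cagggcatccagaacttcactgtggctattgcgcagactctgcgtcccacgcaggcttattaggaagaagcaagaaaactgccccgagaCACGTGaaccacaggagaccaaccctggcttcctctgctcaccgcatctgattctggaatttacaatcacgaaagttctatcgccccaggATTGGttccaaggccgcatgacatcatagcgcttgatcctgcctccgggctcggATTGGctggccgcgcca
In the Fasn window CCAAT was found 3 times, from bases -90 to -86 and -59 to -55 before the start on the opposite strand and from -62 to -58 on the gene's own strand, the last 2 overlapping. The Srebf1 window held 1 on the opposite strand, from -30 to -26. That of Elovl5 held 2 on the opposite strand, from -71 to -67 and from -17 to -13, and the palindrome CACGTG from -161 to -156. In all, 5 of the 10 members' windows, belonging to 4 genes, held CCAAT, against 33.8% of 32851 windows of the same length. CACGTG was in 1 member window against 6.02% of all windows, and TCACNCCAC in 0 against 1.05%. A match describes the letters and not a site in use.

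Acly, Acaca and Fasn perform the successive steps from citrate to palmitate. Only Fasn had a group whose libraries lay outside the range of the others. Acly (ATP-citrate lyase, chr11:100476353-100528000, minus strand in the GENCODE annotation of GRCm38) was read at 44.8 and 59.8 CPM in the NC libraries, at 68.1, 48.4 and 32.7 CPM in vehicle and at 69.1, 55.4, 51.4 and 49.6 CPM in DPI. The 3 groups overlapped. The difference between DPI and vehicle was 0.18 ± 0.32 (log2, SE) with a 95% interval from -0.50 to 0.86. Acaca (acetyl-CoA carboxylase 1, chr11:84129672-84401651, plus strand) had 17.1 and 5.98 CPM in NC, 14.6, 1.45 and 7.43 CPM in vehicle, and 6.31, 4.76, 3.90 and 10.4 CPM in DPI. The vehicle libraries alone spanned the whole range but for the highest NC value, and the groups overlapped in all 3 comparisons.

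Fasn (fatty acid synthase, chr11:120805846-120824547, minus strand) was lower in every DPI library than in any other library. It was read at 45.9 and 17.4 CPM in NC, from 252 and 93 counts. The vehicle libraries held 17.3, 9.25 and 23.3 CPM, and the DPI libraries 3.62, 8.15, 5.01 and 6.22 CPM, the latter from 24 to 61 counts. Group means were 31.6 ± 20.2, 16.6 ± 7.05 and 5.75 ± 1.92 CPM (SD, n = 2, 3 and 4). DPI thus differed from vehicle by -1.54 ± 0.53 (log2, SE; 95% interval -2.69 to -0.40) and passed the study's threshold, but with an edgeR adjusted p of 0.999. Against NC the DPI group differed by -2.48 ± 0.58 (95% interval -3.71 to -1.24), also past that threshold, with an edgeR adjusted p of 0.139. Vehicle and NC overlapped, and their difference of -0.93 ± 0.62 did not pass either threshold, with an edgeR adjusted p of 0.546. This difference was -0.06 without NC replicate 1, and -1.44 and past the study's threshold without NC replicate 2.

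The difference between DPI and vehicle also leaned on a single library. Without vehicle replicate 3, which was the highest of its group, it was -1.23 and no longer passed the study's threshold. In DPI against NC the difference was -2.99 without NC replicate 2, where the edgeR adjusted p was under 0.05, and -1.60 without NC replicate 1. Hepatocytes are rich in Fasn, and the summed level of 12 hepatocyte markers was 140 and 251 CPM in the 2 NC libraries, 18.9 to 71.5 CPM in vehicle and 40.9 to 95.1 CPM in DPI, with Tat at 0 in all libraries and Cyp3a11 at 0 in all HFD libraries. The hepatocyte sums of the DPI and vehicle groups overlapped while those of Fasn did not. The part of hepatocyte RNA in the Fasn levels was not tested.

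**Figure D1:**
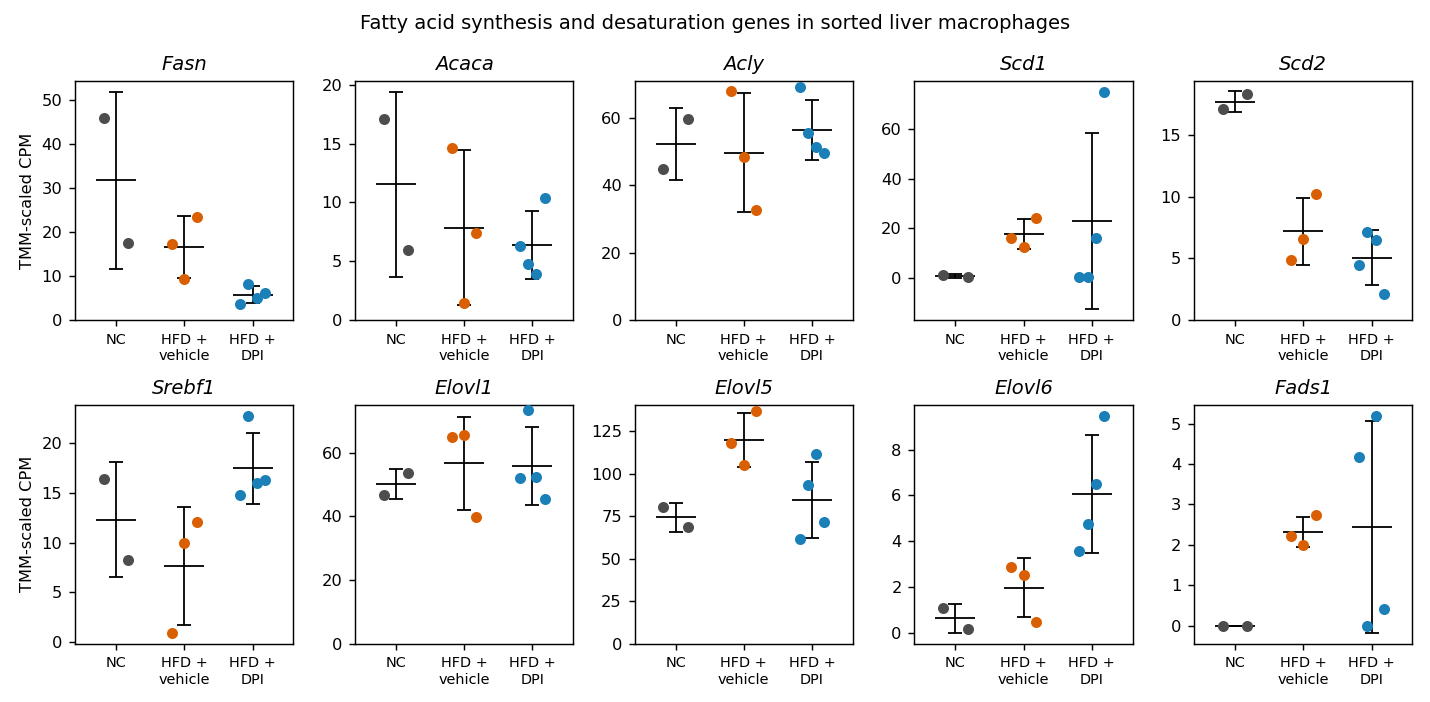
Level of each gene in TMM-scaled CPM (vertical axes, each starting at or below 0), with 1 point per library and the group mean ± SD as a bar, for NC (n = 2), HFD with vehicle (n = 3) and HFD with DPI (n = 4). Fasn lay at 3.62 to 8.15 CPM in the DPI libraries, below all others, whereas Scd1 in the DPI libraries spread from 0.34 to 75.0 CPM.

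Scd1 passed the study's threshold as higher in HFD with vehicle than in NC, and Scd2 did not pass it in that comparison. Scd1 and Scd2 encode stearoyl-CoA desaturases, which make oleate and palmitoleate from saturated fatty acids. Scd1 is the main form of liver and fat and is one of the classical lipogenic targets of SREBP1. It lies at chr19:44394455-44407879 on the minus strand, and Scd2 is its neighbor at chr19:44293674-44306864 on the plus strand. In NC, Scd1 had only 7 and 2 counts, or 1.27 and 0.374 CPM. In vehicle it had 72, 69 and 98 counts, or 16.0, 12.5 and 24.3 CPM, all above the NC libraries. The DPI mice fell into 2 low libraries, with 7 and 1 counts or 0.429 and 0.34 CPM, and 2 high ones, with 86 and 735 counts or 16.0 and 75.0 CPM. DPI replicate 1, one of the low libraries, was the most deeply sequenced of the 9.

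Vehicle differed from NC in Scd1 by 4.38 ± 1.83 (log2, SE; 95% interval 0.45 to 8.31) and passed the study's threshold, with an edgeR adjusted p of 0.347. It no longer passed without NC replicate 1 (a log2 difference of 5.49), NC replicate 2 (3.79) or vehicle replicate 3 (4.13). Between DPI and vehicle the Scd1 difference was 0.40 ± 1.18, and its 95% interval from -2.15 to 2.94 spans large differences of either sign. Its sign rested on DPI replicate 4, without which it was -1.65. The DPI group differed from NC by 4.77 ± 1.82, past the study's threshold with an edgeR adjusted p of 0.405, but overlapped it. This difference no longer passed without DPI replicate 4 (2.73) or without NC replicate 2 (4.18).

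The summed markers of neutrophils and of B cells moved with Scd1 among the DPI libraries, and those of eosinophils and of T and NK cells did not. The summed level of 5 neutrophil markers was 535 and 605 CPM in DPI replicates 1 and 2, where Scd1 was near 0, and 3300 and 4840 CPM in replicates 3 and 4, where it was high. Camp, 1 of these markers, did not follow, with 43.0, 29.5, 55.5 and 23.3 CPM in DPI replicates 1 to 4. The 4 B cell markers summed to 38.2 and 15.6 CPM in the first pair and to 115 and 397 CPM in the second. The 5 dendritic cell markers summed to 58.7, 107, 161 and 345 CPM in DPI replicates 1 to 4, but Ccr7 alone supplied 34.0, 74.0, 122 and 320 CPM of this, and Flt3, Xcr1, Clec9a and Siglech did not follow Scd1. The 5 eosinophil markers summed to 159, 176, 30.1 and 101 CPM and the 5 T and NK cell markers to 143, 239, 220 and 166 CPM. In vehicle the neutrophil sum ran from 2160 to 3390 CPM and the B cell sum from 93.2 to 175 CPM. NC replicate 2 had a neutrophil sum of 2770 CPM, within the vehicle range, with Scd1 at 0.374 CPM. The neutrophil and B cell markers were present although the sort is meant to select macrophages and its Gr1low gate to remove neutrophils. None of the neutrophil, B cell and dendritic cell lists had a marker at 0 throughout a group. Hepatocyte markers, by contrast, were highest in the NC libraries, where Scd1 was low, and adipocyte markers were at 0 in every library. The 6 endothelial markers summed to 73.0 to 172 CPM in the 4 libraries low in Scd1 and to 4.27 to 26.6 CPM in the other 5. Stab2 and Clec4g supplied most of the higher sums, and Pecam1 did not follow them, with 0.911 and 1.12 CPM in NC and its highest level, 19.2 CPM, in DPI replicate 4. The part of these cells in the Scd1 levels was not tested.

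**Figure D2:**
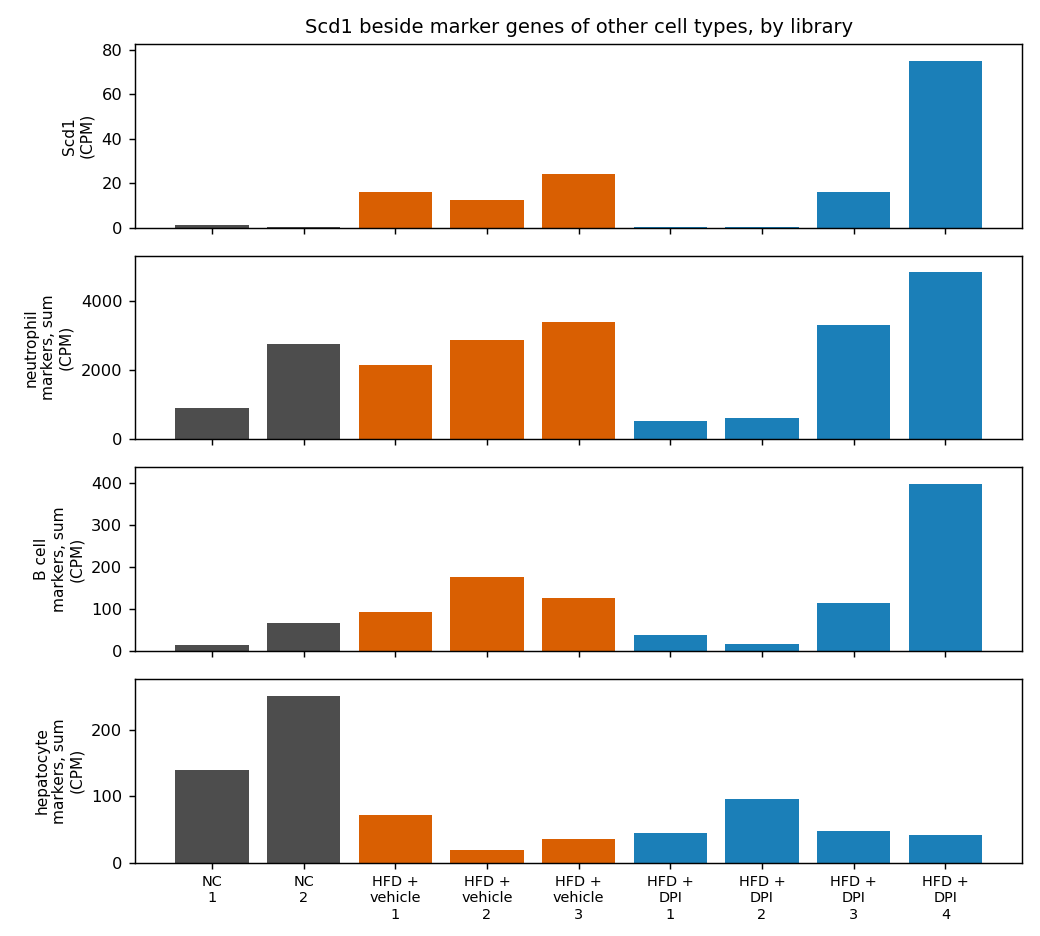
Bars give, for each of the 9 libraries, the TMM-scaled CPM of Scd1 and the summed CPM of markers of neutrophils (5 genes), B cells (4 genes) and hepatocytes (12 genes), colored by group. DPI replicates 1 and 2 were low, and replicates 3 and 4 high, in Scd1, in neutrophil markers (535 and 605 against 3300 and 4840 CPM) and in B cell markers.

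Scd2, which is the form of brain and of many cells outside the liver, was highest on chow. It was read at 17.1 and 18.3 CPM in NC, at 4.88, 6.53 and 10.2 CPM in vehicle, and at 4.47, 7.13, 6.49 and 2.14 CPM in DPI. Both NC libraries lay above all 7 HFD libraries. The vehicle group differed from NC by -1.30 ± 0.71 (log2, SE; edgeR adjusted p of 0.454), which did not pass the study's threshold. The DPI group differed from NC by -1.82 ± 0.66 (95% interval -3.24 to -0.40), which did, with an edgeR adjusted p of 0.375. DPI and vehicle differed by -0.52 ± 0.61 and overlapped. Hepatocyte markers were highest in the NC libraries as well, and the 6 endothelial markers summed to 119 and 172 CPM in NC, 6.44 to 11.1 CPM in vehicle and 123, 73.0, 4.27 and 26.6 CPM in DPI replicates 1 to 4. Most of the vehicle sum in replicates 1 and 2 was Pecam1 (8.66 and 9.07 CPM), which was lowest in NC. Scd2 in DPI replicate 1 was 4.47 CPM, and the part of these cells in the Scd2 levels was not tested. With library size alone in place of TMM scaling, the difference of vehicle from NC was -1.63 and passed the study's threshold.

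As a description of both genes together, the log2 ratio of Scd2 to Scd1 was taken after adding 2 to each raw count. It was 3.42 and 4.64 in NC and -1.62, -0.90 and -1.22 in vehicle. In DPI it was 3.06 and 2.94 in the 2 libraries low in Scd1 and -1.25 and -5.0 in the others. Scd1 made up 1.31% to 3.95% of the counts of the 4 Scd genes in NC, 32.2% to 55.0% in vehicle and 1.82% to 69.7% in DPI. These paralogs share some sequence, since 3.00% of the 50-base words in Scd1 transcripts also occur in Scd2 and 3.45% in Scd3. In the other direction, 2.68% of the words of Scd2 and 4.77% of those of Scd3 occur in Scd1. The few Scd1 counts in NC (7 and 2) and in DPI replicates 1 and 2 (7 and 1) may therefore be reads shared with Scd2 or Scd3, and the Scd1 level in these libraries is uncertain.

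Fads1, the delta-5 desaturase of polyunsaturated fatty acid synthesis, was not detected on chow. It lies at chr19:10182888-10196877 on the plus strand. It had 0 counts in both NC libraries, against floors of 0.546 and 0.56 CPM. The vehicle libraries held 10, 11 and 11 counts, or 2.22, 1.99 and 2.73 CPM. In DPI it had 68, 0, 28 and 4 counts, or 4.17, 0, 5.20 and 0.408 CPM. Set against a floor of 3 counts per library, the mean of vehicle was at least 4.17-fold higher than NC and that of DPI at least 4.41-fold higher. Both comparisons passed the study's threshold, with edgeR adjusted p of 0.329 and 0.405, and in the second the groups overlapped. Neither passed it when either NC library was left out, although the level in NC was then still 0. DPI and vehicle overlapped, with a difference of 0.10 ± 1.42 (95% interval -2.98 to 3.17).

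Of the elongases, Elovl6 extends palmitate to stearate, Elovl5 extends polyunsaturated fatty acids, and Elovl1 makes saturated and monounsaturated very long chains. Elovl6 (chr3:129532355-129638495, plus strand) was the scarcest of them and was higher in every DPI library than in any other. It had 6 and 1 counts in NC (1.09 and 0.187 CPM), 13, 14 and 2 counts in vehicle (2.89, 2.54 and 0.496 CPM), and 58, 14, 35 and 93 counts in DPI (3.56, 4.76, 6.49 and 9.49 CPM). The DPI libraries lay above both other groups, which overlapped each other. DPI differed from vehicle by 1.61 ± 1.02 (log2, SE; 95% interval -0.59 to 3.81), which did not pass the study's threshold. It differed from NC by 3.21 ± 1.33 (0.35 to 6.07), which did, with an edgeR adjusted p of 0.429. The latter no longer passed without NC replicate 2 (a log2 difference of 2.48), DPI replicate 3 (3.17) or DPI replicate 4 (2.90), and it was 4.90 without NC replicate 1.

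Elovl5 (chr9:77917364-77984519, plus strand) was read at 80.5 and 68.5 CPM in NC, at 118, 105 and 137 CPM in vehicle, and at 61.8, 93.4, 112 and 71.6 CPM in DPI. All 3 vehicle libraries exceeded both NC libraries, and 3 of the 4 DPI libraries lay below every vehicle library. Vehicle differed from NC by 0.68 ± 0.34 (95% interval -0.05 to 1.42), with an edgeR adjusted p of 0.413, and DPI from vehicle by -0.50 ± 0.28 (-1.10 to 0.09). The intervals of both include 0. Elovl1 (chr4:118428093-118432953, plus strand) ranged from 39.9 to 73.4 CPM over the 9 libraries, with group means of 50.2 ± 4.80 in NC, 56.7 ± 14.6 in vehicle and 55.8 ± 12.1 CPM in DPI. Its groups overlapped in every comparison, and its difference between DPI and vehicle of -0.03 ± 0.30 moved to 0.00 when libraries were scaled by size alone. Within the 3 elongases, Elovl6 took 0.153% to 0.851% of the counts in NC, 0.280% to 1.55% in vehicle and 2.77% to 7.5% in DPI.

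Srebf1 (chr11:60199089-60222581, minus strand), the transcription factor of the set, was higher in all 4 DPI libraries than in all 3 vehicle libraries. It had 16.4 and 8.22 CPM in NC. In vehicle it had 0.888, 9.97 and 12.1 CPM, the first from only 4 counts, and in DPI it had 14.8, 22.8, 16.0 and 16.3 CPM. Means were 12.3 ± 5.78, 7.67 ± 5.97 and 17.5 ± 3.58 CPM. The difference of DPI from vehicle, 1.18 ± 0.69 (log2, SE; 95% interval -0.30 to 2.67), did not pass either threshold. Its size depended on the vehicle library with 4 counts, since without vehicle replicate 1 it was 0.65. The counts are summed over the transcripts of the gene, so the SREBP1a and SREBP1c forms, which begin at different promoters, were not separated.

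**Figure D3:**
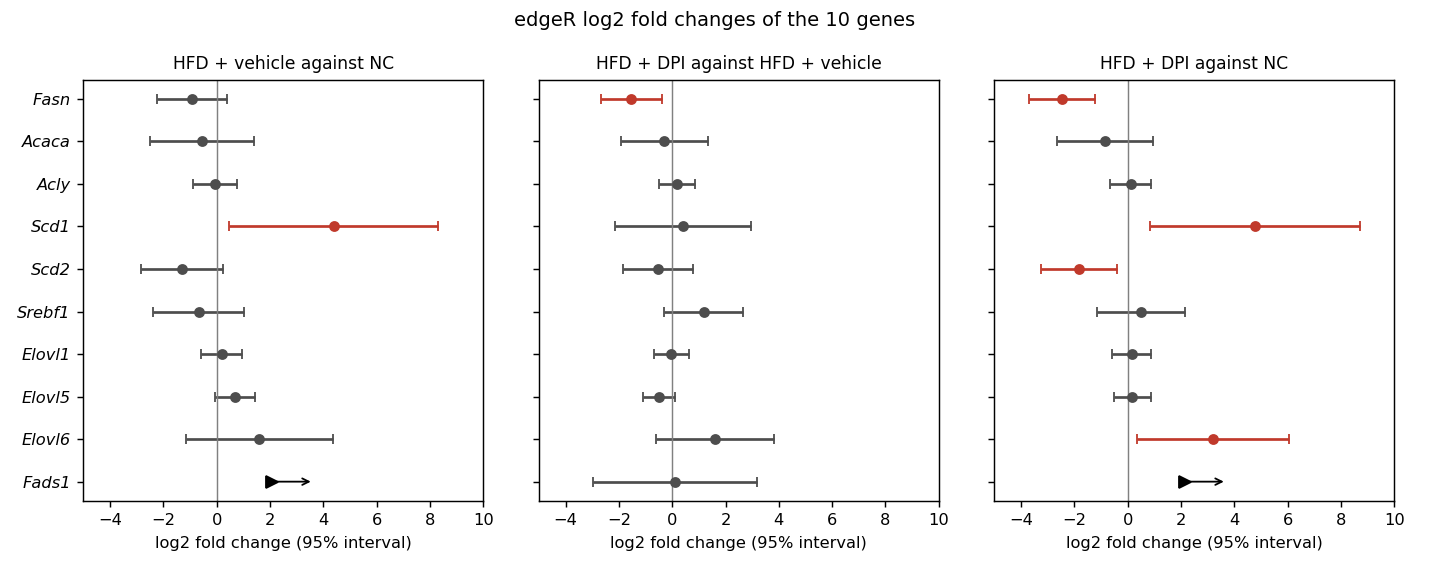
Points give the edgeR log2 fold change of each gene with its 95% interval in 3 comparisons, in red where the unadjusted p was under 0.05 with at least a 2-fold difference. Triangles with arrows give Fads1 against the floor of 3 counts in NC, where it had 0 counts. Between DPI and vehicle, Fasn alone is red, at -1.54.

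Across all 10 genes, none passed an adjusted p of 0.05 in any of the 3 comparisons in edgeR. Over all genes tested, that threshold was passed by 0.0614% of genes as higher in vehicle than in NC, by 0.00878% as higher in DPI than in NC, and by 0% in each of the other directions. At an unadjusted p under 0.05 edgeR called 2 of the 10 in vehicle against NC (13% of all genes), 1 in DPI against vehicle (4.13%) and 5 in DPI against NC (10.7%). DESeq2 with adjustment called 0, 0 and 1, the last being Fasn. The 3 comparisons share libraries, so their counts are not independent of each other.

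At the study's threshold, 2 members were called higher in vehicle than in NC (Scd1 and Fads1; 7.03% of all genes were) and 0 lower (4.63%). In DPI against vehicle, 0 passed as higher (1.5%) and 1 as lower, Fasn (1.34%). In DPI against NC, 3 passed as higher (Scd1, Elovl6 and Fads1; 6.24%) and 2 as lower (Fasn and Scd2; 3.05%). With 10 genes these counts are small. Groups did not overlap in vehicle against NC for 3 higher members (Scd1, Elovl5 and Fads1; 15% of all genes) and 1 lower member (Scd2; 12.5%). They did not overlap in DPI against vehicle for 2 higher (Srebf1 and Elovl6; 3.38%) and 1 lower (Fasn; 2.48%), nor in DPI against NC for 1 higher (Elovl6; 11.7%) and 2 lower (Fasn and Scd2; 8.5%). The median log2 fold change of the 10 genes was 0.05, 0.03 and 0.16 in the 3 comparisons, and that of all genes tested 0.03, 0.04 and 0.04. Of the 10 fold changes 5, 5 and 7 were positive.

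To compare the genes with each other, CPM were divided by the length of their exons in kilobases. Averaged over the group means, Elovl5 was highest at 26.4 CPM per kb, followed by Elovl1 at 19.9 and Acly at 10. Then came Scd1 at 2.82, Srebf1 at 2.22, Scd2 at 1.83 and Fasn at 1.64 CPM per kb. Acaca at 0.502, Elovl6 at 0.450 and Fads1 at 0.329 CPM per kb closed the order. The step from Elovl1 to Acly was seen in 9 of 9 libraries and that from Acly to Scd1 in 8 of 9, whereas Elovl5 exceeded Elovl1 in 6. Neighbors from Scd1 down to Fasn exceeded the next gene in only 5 or 6 of 9 libraries, and Acaca, Elovl6 and Fads1 did not differ in order beyond their spread, at 4 of 9. Scd1 and Srebf1 changed places when the longest coding transcript was used for length.

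The order below the first 3 genes differed between groups. In NC, Scd2 (3.24 CPM per kb) and Fasn (2.89) came next and Scd1 (0.168) was in place 8. In vehicle Scd1 was in place 4 at 3.60 CPM per kb, with Fasn at 1.52, Srebf1 at 1.36 and Scd2 at 1.32. In DPI Scd1 was again in place 4 at 4.69 CPM per kb, on the strength of 1 library at 15.3, and Srebf1 followed at 3.10, with Elovl6 at 0.944 now above Fasn at 0.525. These are level orders within each group and carry no test.

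**Figure D4:**
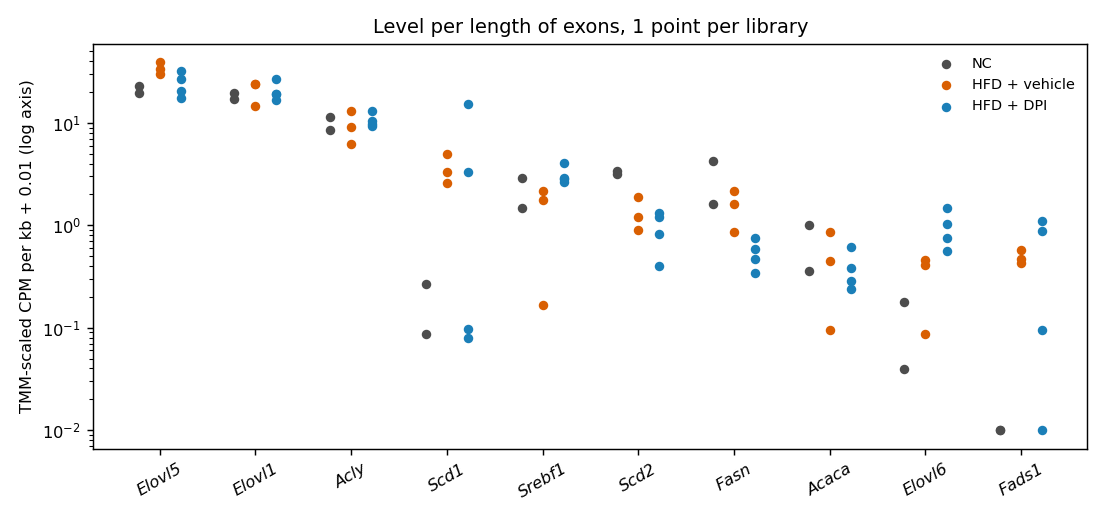
The vertical log axis gives TMM-scaled CPM per kilobase of exons plus 0.01 and each point is 1 library, with genes ordered by their mean over the 3 groups. Elovl5, Elovl1 and Acly lie above the other genes in nearly all libraries, and Scd1 spans 0.0694 to 15.3 CPM per kb.

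The same pathway holds other genes. The 6 lists of 52 genes covered precursor and NADPH supply, other elongation enzymes, other desaturases and their electron carriers, acyl-CoA synthetases, regulators and mitochondrial fatty acid synthesis, of which 38 were tested. None passed an adjusted p of 0.05 in edgeR in any comparison. At the study's threshold, 5 of the 38 were higher in vehicle than in NC (13.2%) and 3 lower (7.89%), beside 7.03% and 4.63% of all genes. In DPI against vehicle, 0 were higher and 1 lower (2.63%), beside 1.5% and 1.34% of all genes. In DPI against NC 3 were higher (7.89%) and 2 lower (5.26%), beside 6.24% and 3.05%.

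Of the genes of precursor supply, Slc25a1 passed the study's threshold as higher and Idh1 as lower in vehicle than in NC. Slc25a1, the mitochondrial citrate carrier that feeds Acly, had 16.8 and 7.66 CPM in NC, 24.6, 31.7 and 38.9 CPM in vehicle, and 16.5, 16.3, 15.6 and 20.3 CPM in DPI. All vehicle libraries lay above all others. Its differences were 1.38 ± 0.51 for vehicle against NC (edgeR adjusted p = 0.311) and -0.88 ± 0.41 for DPI against vehicle (edgeR adjusted p = 0.999), the latter under 2-fold. Idh1, which makes NADPH in the cytosol, was lower in every vehicle library (36.2 to 47.7 CPM) than in NC (68.5 and 186 CPM), by -1.63 ± 0.55 with an edgeR adjusted p of 0.278. In DPI it was at 124, 83.6, 33.4 and 36.3 CPM in replicates 1 to 4. The endothelial sums given beside Scd2, though not Pecam1 among their markers, were likewise highest in NC and in DPI replicates 1 and 2, and the 12 hepatocyte markers summed to 140 and 251 CPM in NC and 18.9 to 71.5 CPM in vehicle. The part of these cells in the Idh1 levels was not tested. Of the 6 genes tested on this list, 1 was higher and 1 lower in vehicle against NC at the study's threshold (7.03% and 4.63% of all genes). In the other comparisons 0 passed.

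Among the other elongation enzymes, 0 of 6 tested passed the study's threshold in any comparison. Tecr, the reductase of the last step of each elongation cycle, differed by -0.68 ± 0.37 between vehicle and NC (edgeR adjusted p = 0.452). Likewise 0 of 3 tested passed among other desaturases and electron carriers, where Scd3, a desaturase of skin glands, differed by 0.59 ± 0.60 between DPI and NC (edgeR adjusted p = 0.773). Of 4 acyl-CoA synthetases 1, Acsl3, passed, as higher in vehicle than in NC (edgeR adjusted p = 0.364; 7.03% of all genes passed in this direction) and in DPI than in NC (edgeR adjusted p = 0.400; 6.24%), and 0 passed in DPI against vehicle. It had 0 counts in both NC libraries, 5, 10 and 2 in vehicle and 6, 1, 14 and 61 in DPI, so that 1 library of either HFD group was under the floor of 3 counts. Most of the DPI level came from replicate 4, at 6.22 CPM against 0.34 to 2.6 CPM in the others. In mitochondrial fatty acid synthesis, a separate pathway that serves lipoic acid formation, 0 of 6 passed. Ndufab1, its acyl carrier protein, differed by -0.98 ± 0.40 between vehicle and NC (edgeR adjusted p = 0.338), just under 2-fold.

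The regulators were the largest list, with 13 of the 38 genes tested. At the study's threshold 3 were higher in vehicle than in NC (Insig2, Srebf2 and Mbtps2; 7.03% of all genes were) and 2 lower (Usf1 and Mid1ip1; 4.63%). The INSIG proteins hold SREBP precursors in the endoplasmic reticulum. Insig2 had 1 and 0 counts in NC, 32, 50 and 10 in vehicle, and 78, 41, 18 and 21 in DPI. Vehicle and DPI both passed the study's threshold against NC, with edgeR adjusted p of 0.182 and 0.236. Srebf2, the sterol-directed relative of Srebf1, was at 10.7 and 22.8 CPM in NC, at 82.1, 28.1 and 41.6 CPM in vehicle and at 18.3, 11.2, 38.2 and 22.2 CPM in DPI. Vehicle replicate 1 was far above the others, and the DPI and vehicle libraries overlapped. Srebf2 differed by 1.59 ± 0.62 between vehicle and NC and by -1.17 ± 0.49 between DPI and vehicle, with edgeR adjusted p of 0.326 and 0.999, and was the only gene of the 38 past the threshold in the latter comparison. Mbtps2, the site-2 protease that releases SREBPs, differed by 2.28 ± 0.91 between vehicle and NC (edgeR adjusted p = 0.333). Srebf2, Mbtps2 and Scap were named after their values had been seen.

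Usf1, an upstream stimulatory factor that binds E-boxes of lipogenic promoters, had 123 and 78.8 CPM in NC, 39.1, 44.1 and 41.1 CPM in vehicle, and 88.6, 73.7, 67.2 and 47.1 CPM in DPI. The vehicle libraries lay below all others. Usf1 differed by -1.28 ± 0.35 between vehicle and NC (edgeR adjusted p = 0.182) and by 0.74 ± 0.30 between DPI and vehicle (edgeR adjusted p = 0.999), the latter under 2-fold. Mid1ip1, which promotes polymerization of acetyl-CoA carboxylase, differed by -1.32 ± 0.51 between vehicle and NC and by -1.05 ± 0.47 between DPI and NC, with edgeR adjusted p of 0.321 and 0.457. It had 58.5 and 40.5 CPM in NC, 15.8, 31.7 and 11.9 CPM in vehicle, and 33.0, 28.5, 16.1 and 18.1 CPM in DPI. The endothelial sums given beside Scd2, though not Pecam1 among their markers, were highest in NC and in DPI replicates 1 and 2. The part of these cells in the Mid1ip1 and Usf1 levels was not tested. In DPI against NC, the regulators Insig2 and Scap passed the threshold as higher (6.24% of all genes did). Mid1ip1 and Usf2 passed as lower (3.05%). Usf2 differed by -1.27 ± 0.48 and Scap, the SREBP escort protein, by 2.26 ± 1.04 (edgeR adjusted p of 0.399 and 0.463). The Usf2 groups overlapped, since NC replicate 1 had 85.2 CPM while NC replicate 2, at 22.8 CPM, lay within the DPI range of 17.7 to 31.6 CPM.

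**Figure D5:**
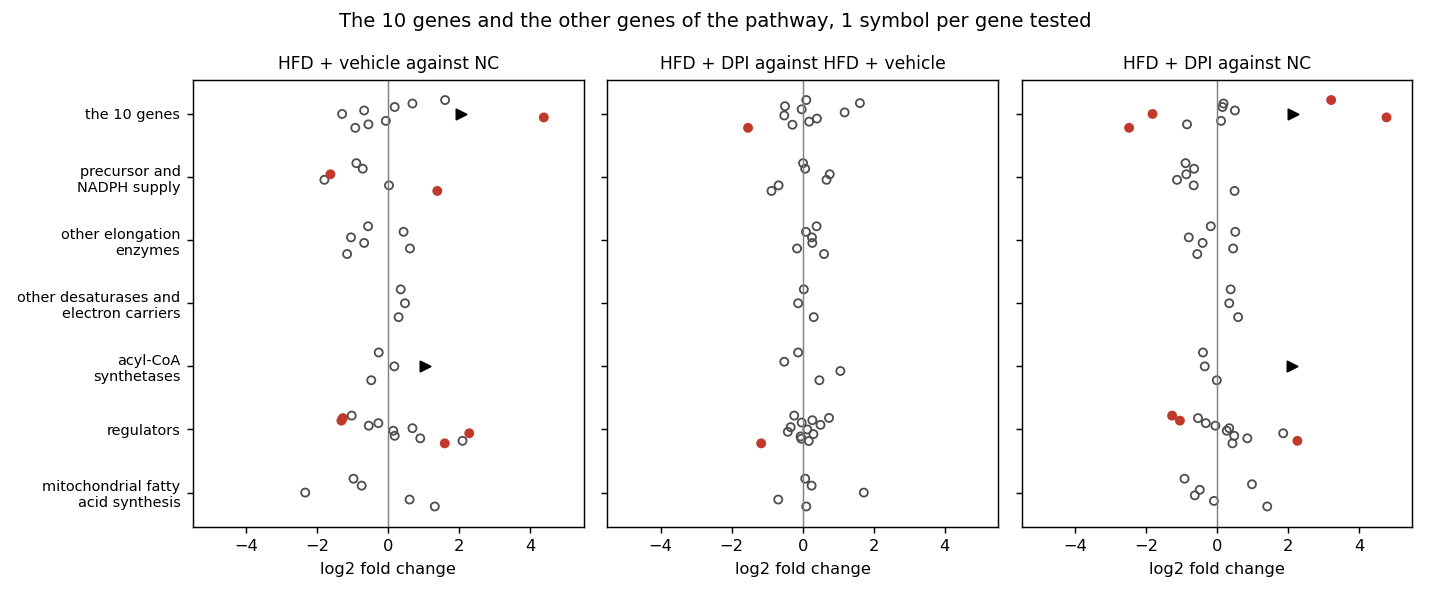
Each symbol is 1 tested gene at its edgeR log2 fold change (horizontal axis), by list and comparison, filled in red where it passed an unadjusted p under 0.05 with at least a 2-fold difference. Triangles give genes at 0 counts in NC, set against the floor of 3 counts. Insig2 and Acsf3 are left out where they had at most 3 counts in each library of a group, and in DPI against vehicle 1 gene of the 10 and 1 regulator are red.

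A further pair of lists was compared because SREBP and LXR, a sterol-sensing nuclear receptor that is known to induce Srebf1, also act on them. Of 16 sterol synthesis genes, 3 were higher and 1 lower in vehicle than in NC at the study's threshold (7.03% and 4.63% of all genes), 1 was higher in DPI than in vehicle (1.5%), and 3 were higher in DPI than in NC (6.24%). Fdps, which makes farnesyl diphosphate, had 0 counts in both NC libraries and 117 to 125 counts in vehicle and 41 to 279 in DPI. Its mean was 47.3 times the NC floor of 3 counts per library in vehicle and 36.9 times in DPI. The edgeR adjusted p were 0.00646 and 0.00869. These calls did not hold in an edgeR fit of only the 2 groups compared, nor with a block on the replicate number, where 0 of all genes passed in either comparison. Fdft1, squalene synthase, had 4.55 and 10.3 CPM in NC and 39.7, 19.4 and 16.6 CPM in vehicle (edgeR adjusted p = 0.311). Lss also had 0 counts in NC, 27, 12 and 1 in vehicle and 9, 9, 0 and 25 in DPI. DPI overlapped NC, vehicle replicate 3 was under the floor, and the edgeR adjusted p were 0.34 and 0.458. Mvk had 48 and 1 counts in NC, 0, 0 and 2 in vehicle, and 76, 6, 15 and 30 in DPI. Of 5 tested LXR targets, Apoe among them, 0 passed in any comparison.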

How the data were processed

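Messenger RNA (an mRNA library kit) from sorted liver macrophages was sequenced in 9 libraries, 1 per mouse by their titles. The deposited values are raw counts per gene symbol, and per the study's methods the authors aligned reads with bowtie2 and estimated counts with RSEM on mm10, whereas the submitters' processing notes name TopHat2, edgeR and mm10. The annotation and strand setting are not given in the sources used here, so reads of overlapping genes may be shared. Groups followed the labels. The table holds 23413 genes, of which 11393 passed the expression filter of edgeR.

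Counts were fitted with edgeR 4.0.16 (limma 3.58.1, R 4.3.3), TMM scaling and a quasi-likelihood model over all 3 groups, with 3 contrasts and Benjamini-Hochberg adjustment over all genes tested. The biological coefficient of variation was 0.65. Intervals are 95% confidence intervals of the log2 fold change, with the SE derived from the F statistic of the test. They do not give the range of single mice and are not adjusted for the number of genes tested. The alternatives were other scaling, no filter, removal of Rn45s, a fit of only the 2 groups compared, DESeq2 1.42.0, a block on the replicate number and each library left out. Fitting was also run on simulated counts. Recovery of known differences was required only at a spread below that of these data, so it does not show what could be detected here.

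The 10 members and all gene lists were chosen with earlier results of these data known. From each list the genes past the study's threshold were named, at most 4 by smallest p, or otherwise the gene of smallest p, and exceptions are stated. For the 3 most abundant members the 3 genes of most similar pattern were named. Same-numbered mice of different groups did not deviate together (0 of 7 pairs had a correlation over 0.1, range -0.02 to 0.08), so the numbers are not a pairing. Lengths came from GENCODE M21 and promoter windows from RefSeq. Cyb5a and Hsd17b8 were not analysed here.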

Additional observations from a re-analysis of the deposited data

Results flagged for a closer look

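The log2 ratio of Elovl6 to Elovl5 was -2.89 in DPI replicate 4 and -4.07, -4.11 and -4.03 in the other 3 DPI libraries. It stood out because its gap to the nearest library took up most of the range of the group. Chance alone marks about 1 in 20 such groups, and 1 of 28 groups of 4 was marked. The same library had the highest Scd1, at 75.0 CPM, and the highest summed neutrophil markers, at 4840 CPM, although the Gr1low gate is meant to remove neutrophils. The part of these cells in the ratio was not tested.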

How the results depend on the processing

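With 2 NC libraries and a biological coefficient of variation of 0.65, small differences could not be detected, and Scd1 and Elovl6 in NC and Fads1 in several libraries were near the floor of 3 counts. No member passed an adjusted p of 0.05 in edgeR under any alternative tried, except Fasn in DPI against NC, which was called by DESeq2 (1 of 10) and without NC replicate 2. DESeq2 also called more of all genes than edgeR (242 higher and 77 lower in vehicle against NC, 1 and 1 in DPI against vehicle, 190 and 29 in DPI against NC). Over all genes edgeR called 7 in vehicle against NC and 1 in DPI against NC, but 0 in both when only the 2 groups were fitted or with a replicate block, 39 higher and 13 lower, and 21 and 1, without the filter, and 464 higher and 104 lower, and 476 and 96, without NC replicate 2. With library size alone, or without vehicle replicate 1, vehicle replicate 2 or any 1 DPI library, edgeR called 1 of all genes in vehicle against NC. Without vehicle replicate 3 it called 2. The cause of these differences was not tested.

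With library size alone, the median of all genes moved from 0.03 to -0.26, from 0.04 to 0.12 and from 0.04 to -0.17 in the 3 comparisons, and these log2 fold changes turned: Elovl1 to -0.09 in vehicle against NC and in DPI against NC and to 0.00 in DPI against vehicle, Acly to -0.10 and Elovl5 to -0.05 in DPI against NC. Length by the longest coding transcript moved the levels of Elovl5, Elovl1 and Acaca to 33.4, 29.9 and 0.902 CPM per kb.

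The replicate numbers do not pair the mice, and DPI replicate 4 stood alone in its block. With a replicate block, 1 member (Scd1) passed the study's threshold in vehicle against NC, and 1 (Fasn) in DPI against NC, in place of 2 and 5. In DPI against vehicle the 1 member past it was Scd1 in place of Fasn. Of all genes, 610 then passed as higher and 287 as lower in vehicle against NC. They numbered 150 and 251 in DPI against vehicle and 537 and 281 in DPI against NC. Under the block Acly turned to 0.05 in vehicle against NC, and Scd1 to -3.41, Elovl1 to 0.08 and Fads1 to -0.23 in DPI against vehicle.

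Without vehicle replicate 3, 1 member passed the study's threshold in vehicle against NC. Of all genes, 678 then passed as higher and 349 as lower, in place of 801 and 528. In DPI against vehicle 0 members passed without that library (126 and 84 of all genes, in place of 171 and 153). Without DPI replicate 4, 3 members passed in DPI against NC (638 and 347 of all genes, in place of 711 and 347). No member passed an adjusted p of 0.05 when any 1 HFD library was left out. Fits without an NC library rest on 1 NC mouse, and their calls are not counted here. Without 1 NC library the other was assumed to vary like the other groups. With any 1 library left out, the log2 fold changes that changed sign ranged, in vehicle against NC, from -1.35 to 0.39 for Acaca and from -0.31 to 0.21 for Acly. In DPI against vehicle they ranged from -0.79 to 0.53 for Acaca, from -0.06 to 0.46 for Acly, from -1.65 to 0.81 for Scd1, from -0.24 to 0.09 for Elovl1 and from -0.54 to 0.48 for Fads1. In DPI against NC they ranged from -1.39 to 0.10 for Acaca and from -0.07 to 0.36 for Acly. Otherwise, 194 log2 fold changes of members under the other settings and 240 with a library left out kept their direction and their side of the study's threshold.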

Other observations

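Acaca and Fasn catalyze consecutive steps. The log2 ratio of Fasn to Acaca, after adding 2 to each raw count, was 1.40 and 1.48 in NC. It ran from 0.23 to 2.41 in vehicle with a median of 1.58, and from -0.78 to 0.70 in DPI with a median of -0.19. The vehicle and DPI ranges overlapped, and these ratios carry no test.

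The genes whose log2 CPM followed the 3 most abundant members most closely over the 9 libraries were not genes of the pathway, which the choice excluded. Pearson's r is given as a description. For Elovl5 they were Scml4 (0.93), 4930577N17Rik (0.93) and Gins3 (0.91), for Elovl1 Dusp19 (0.89), Ppat (0.88) and Arhgef3 (0.88), and for Acly Creld1 (0.95), Man1c1 (0.95) and Bcs1l (0.93). All points share the same libraries, and so their depth and scaling, and the genes were picked as the most similar among all genes tested.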
